A study of Oryctolagus cuniculus with 6 samples.

Results

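The genes described here are 8 components, regulators and receptors of the complement system: the proteases C1R, C1S and C2, the regulators CFI, SERPING1 and CD55, and the anaphylatoxin receptors C3AR1 and C5AR1. They were chosen by symbol, and each of the 8 had a single row among the 29587 genes of the deposited table. Of the 8, 7 were abundant enough to be tested among 13724 genes, and C3AR1 was not. Poly(A) RNA of tracheal mucosa was sequenced from New Zealand rabbits aged 3 months, in 2 groups of 3 libraries. In the high cuff pressure group, a tracheal tube of 3 mm lay 13 cm deep in the airway, and its inflatable cuff was kept at 35 cmH2O for 2 h. The labels give no tube, handling or sampling time for the control group. They call the material epithelial cells, whereas the protocol names mucosa, and markers of epithelium, fibroblasts, smooth muscle and leukocytes were all present.

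Complement is a cascade of plasma and tissue proteins. In the classical pathway, C1q bound to antibody or damaged surfaces activates the protease C1r, which activates C1s, and C1s cleaves C4 and C2 to form an enzyme that splits C3. C1 inhibitor, encoded by SERPING1, blocks C1r and C1s, factor I (CFI) cuts C3b and C4b into inactive pieces, and CD55, decay-accelerating factor, takes the convertases apart on the cell's own surface. The fragments C3a and C5a act on leukocytes through C3AR1 and C5AR1. Most plasma complement is made in the liver, but epithelium, fibroblasts and macrophages also make components locally.

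Library totals ranged from 10501734 to 14415754 counts, and 503 genes rose and 222 fell at an adjusted p under 0.05 (edgeR quasi-likelihood test). The mitochondrial share of counts was 27.8% to 30.5% with high cuff pressure and 5.28% to 11.5% in controls. With mitochondrial genes left out of the fit, 500 genes rose and 217 fell, and none of the 8 genes above passed (edgeR). Any further part of the mitochondrial share in the results below was not tested. High cuff pressure replicate 1 stood apart on the second principal component (19.7% of the variance) and had low smooth muscle markers, with a summed level of 409 CPM (read counts scaled to library size) against 3545 and 6201 CPM in the other libraries of its group. The 725 calls became 2623 without that library, 4 without high cuff pressure replicate 2, 302 without replicate 3, 76 on leaving out control replicate 1, and 0 on leaving out control replicate 2 or 3 (edgeR, adjusted over all genes). Since the labels do not tie each library to its own animal, p-values here speak of differences among libraries, which may be technical.

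Among the members, the receptor C5AR1 had the largest difference, with a level 4.0-fold higher with high cuff pressure, and CFI was 2.85-fold higher in controls. Neither passed the adjusted threshold: 0 of 7 tested members were called higher, where 3.67% of all tested genes were, and 0 of 7 lower, where 1.62% were (edgeR quasi-likelihood test, Benjamini-Hochberg adjustment). At an unadjusted p under 0.05, C5AR1 was the 1 member higher, against 15.6% of all tested genes, and CFI the 1 member lower, against 13.6%. They were also the only tested members whose groups did not overlap, 14.3% of the 7 in each direction, which is no larger than the 18.6% of all tested genes that lay wholly higher and the 18.7% that lay wholly lower. The median log2 fold change of the 7 members was 0.23, beside -0.01 over all tested genes.

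Other tools placed these members on the other side of the threshold. DESeq2 called C5AR1 higher and CFI lower (9.5% and 8.01% of all genes it tested were called in these directions), as did edgeR's exact test (6.03% and 4.33%) and limma-trend on log2(FPKM + 1) (3.29% and 13.3%). limma-voom called C5AR1 but not CFI (3.79% higher and 2.21% lower over all genes). In the authors' deposited table C5AR1 was called higher with a q of 0.0055 and CFI lower with a q of 0.027. That is 1 of the 8 members (12.5%) in each direction, against 3.97% of 19001 genes higher and 3.67% lower. The authors' calls do not follow q alone: 1690 genes had a q under 0.05, while 754 were called higher and 697 lower. Their shares thus rest on another criterion than those of the tools above. The other members had a q of 0.60 or more in the authors' deposited table.

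**Figure D1:**
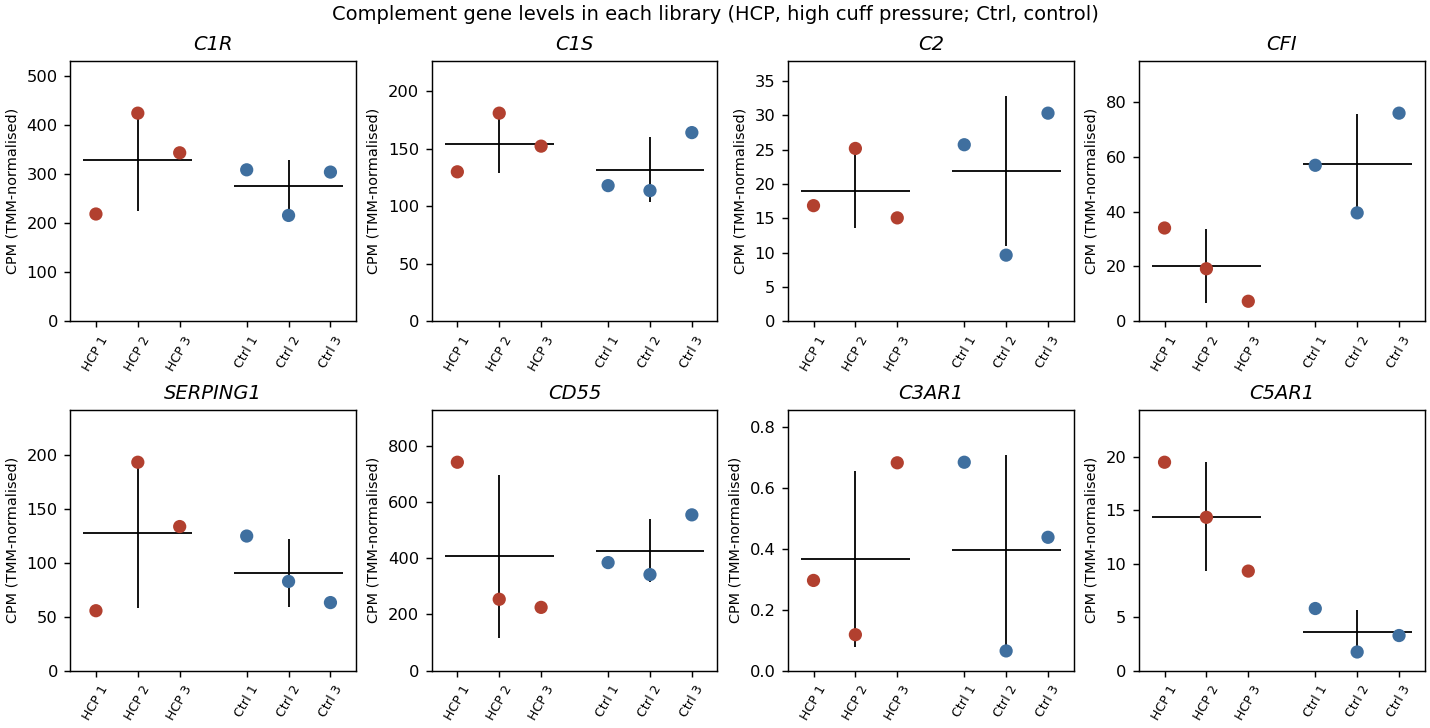
Level of each of the 8 members in TMM-normalised CPM (vertical axes), in every library, by group (horizontal axes). Points are libraries and bars show the mean and SD of 3 libraries. C5AR1 lies wholly higher with high cuff pressure (9.32 to 19.5 CPM against 1.74 to 5.81 CPM), CFI lies wholly lower, and the groups overlap for the other members.

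The initiating proteases C1R and C1S were abundant in both groups and did not pass the test. C1R (ENSOCUG00000014480), the protease that is activated first within the C1 complex, had levels of 219, 424 and 344 CPM in high cuff pressure replicates 1, 2 and 3 and of 309, 216 and 304 CPM in control replicates 1, 2 and 3. High cuff pressure replicate 2 was the highest and replicate 1 was near the lowest control, so the groups overlapped. Means were 329 ± 103 CPM and 276 ± 52.4 CPM (SD, n = 3 per group), a log2 fold change of 0.25 ± 0.30 (SE) with a 95% interval of -0.45 to 0.95 (edgeR, adjusted p = 0.61).

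C1S (ENSOCUG00000014468), which cleaves C4 and C2, had levels of 130, 181 and 152 CPM with high cuff pressure and 118, 114 and 164 CPM in controls. It was the steadiest member in the treated group, where the highest library was 1.39 times the lowest, and the groups overlapped. The log2 fold change was 0.23 ± 0.24 with an interval of -0.33 to 0.78 (edgeR, adjusted p = 0.55). Both genes lie on chromosome 8 in the deposited coordinates, for which the sources used name no build. C1S spans 33038541 to 33046513 on the plus strand and C1R 33044169 to 33086147 on the minus strand. They overlap over 2345 bp, and since no strand setting for counting is given, reads in that stretch cannot be told apart. The log2 ratio of C1R to C1S was 1.05 ± 0.26 with high cuff pressure and 1.07 ± 0.28 in controls (difference -0.02, two-sided exact permutation p = 1, and -0.11 to 0.14 with 1 library left out).

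C2 (ENSOCUG00000006999, chromosome 12, 20766690 to 20778210) supplies the catalytic part of the classical convertase. Its levels were 16.9, 25.2 and 15.1 CPM with high cuff pressure and 25.7, 9.65 and 30.3 CPM in controls. Control replicate 2 was the lowest of all libraries and control replicate 3 the highest, so the treated libraries lay within the control range. The log2 fold change was -0.20 ± 0.44 with an interval of -1.21 to 0.80 (edgeR, adjusted p = 0.79), and it was 0.11 without control replicate 3.

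Of the regulators, CFI (ENSOCUG00000003892, chromosome 15, 39628506 to 39670708), the plasma protease that inactivates C3b and C4b, had 34.01, 19.2 and 7.35 CPM with high cuff pressure and 56.8, 39.5 and 75.8 CPM in controls. Every treated library was below every control, although the treated libraries themselves differed 4.63-fold. Means were 20.2 ± 13.4 CPM and 57.4 ± 18.2 CPM (SD, n = 3 per group). The log2 fold change was -1.51 ± 0.52 with an interval of -2.71 to -0.31 (edgeR quasi-likelihood test, unadjusted p = 0.020, adjusted p = 0.11). It was -2.12 without high cuff pressure replicate 1, where it passed (edgeR, adjusted p = 0.031). CFI lies wholly inside the span of MCUB, a subunit of the mitochondrial calcium channel encoded on the opposite strand. With no strand setting for counting given, it is not known whether CFI and MCUB share reads, and this was not tested. MCUB had 37.7 ± 8.70 CPM with high cuff pressure and 32.6 ± 2.10 CPM in controls, a log2 fold change of 0.21 ± 0.24 (edgeR, adjusted p = 0.59).

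SERPING1 (ENSOCUG00000026479, chromosome 1, 190671793 to 190687144), which encodes C1 inhibitor, had 55.5, 193 and 134 CPM with high cuff pressure and 125, 82.7 and 63.0 CPM in controls. High cuff pressure replicate 1 was the lowest of all 6 libraries while replicates 2 and 3 were the highest. Its log2 fold change was 0.50 ± 0.45 with an interval of -0.54 to 1.54 (edgeR, adjusted p = 0.48). Without high cuff pressure replicate 1 it was 0.86, and without replicate 2 it was 0.08, neither past the threshold.

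CD55 (ENSOCUG00000023887, chromosome 16, 65114547 to 65141637), is a lipid-anchored protein of the cell surface. Its levels were 743, 254 and 225 CPM with high cuff pressure and 385, 342 and 555 CPM in controls. High cuff pressure replicate 1 was the highest of all libraries, and replicates 2 and 3 were both below the lowest control. The log2 fold change was -0.07 ± 0.48 with an interval of -1.18 to 1.04 (edgeR, adjusted p = 0.94). It was -0.83 without high cuff pressure replicate 1 and 0.22 without replicate 3, neither past the threshold.

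C5AR1 (ENSOCUG00000022167), the receptor through which C5a attracts and activates neutrophils and macrophages, was counted 198, 122 and 123 times with high cuff pressure and 68, 27 and 45 times in controls. These counts correspond to 19.5, 14.4 and 9.32 CPM and to 5.81, 1.74 and 3.28 CPM. Every treated library was above every control. Means were 14.4 ± 5.10 CPM and 3.61 ± 2.06 CPM (SD, n = 3 per group). The log2 fold change was 2.00 ± 0.50 with an interval of 0.85 to 3.15, a fold of 4.0 with an interval of 1.80 to 8.90 (edgeR quasi-likelihood test, unadjusted p = 0.0040, adjusted p = 0.058). It was positive with each library left out, from 1.66 to 2.53, and passed in none of those fits. Its gene model of 1047 bp fills its whole span on an unplaced scaffold, at 582482 to 583528.

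C3AR1 (ENSOCUG00000007438, chromosome 8, 33623688 to 33625130), the C3a receptor, was close to the detection floor in every library. It was counted 3, 1 and 9 times with high cuff pressure and 8, 1 and 6 times in controls, where 3 counts correspond to 0.208 to 0.286 CPM. The groups overlapped, and the summed counts of 13 and 15 gave a ratio per total of 0.851 with an interval of 0.372 to 1.92 that covers counting error only. A difference within that interval was not detectable at this depth. The log2 ratio of C5AR1 to C3AR1 was 4.86 ± 1.2 with high cuff pressure and 2.80 ± 0.27 in controls, a difference of 2.07 (two-sided exact permutation p = 0.10, the smallest that 3 against 3 allows), and it rests on these few C3AR1 counts.

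Levels between genes were compared per length, as the FPKM deposited by the authors, without a test. In controls CD55 was the most abundant member, with 123 ± 37.7 FPKM (SD, n = 3), and lay wholly above the next gene. C1S (68.6 ± 17.9 FPKM), SERPING1 (64.8 ± 16.9 FPKM), C1R (57.0 ± 9.39 FPKM) and CFI (36.2 ± 12.3 FPKM) followed, with neighbours that overlapped. CFI lay wholly above C2 (7.72 ± 3.86 FPKM), which overlapped with C5AR1 (3.83 ± 1.86 FPKM), and C3AR1 was lowest with 0.302 ± 0.224 FPKM.

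With high cuff pressure the upper 4 members were CD55 (89.5 ± 66.0 FPKM), SERPING1 (69.9 ± 34.8 FPKM), C1S (60.4 ± 7.16 FPKM) and C1R (51.5 ± 14.2 FPKM), and neighbours overlapped. C1R lay wholly above C5AR1, at 11.96 ± 4.31 FPKM. C5AR1 overlapped with CFI (9.64 ± 6.57 FPKM), which overlapped with C2 (5.10 ± 1.08 FPKM), and C3AR1 was again lowest at 0.227 ± 0.187 FPKM. C5AR1 thus stood above CFI by mean with high cuff pressure and below it in controls, and the libraries of both genes overlapped in the former and not in the latter.

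**Figure D2:**
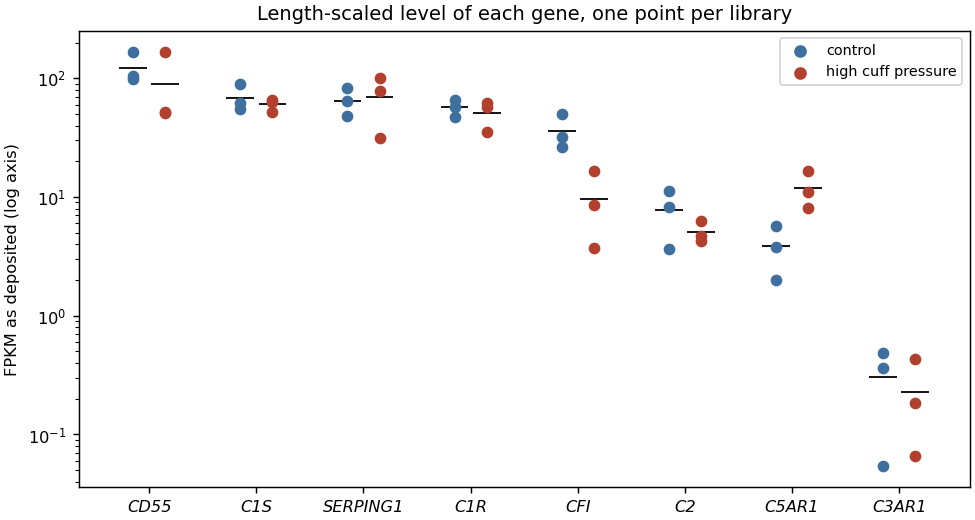
FPKM of the 8 members on a log axis, ordered by their control mean, with points for libraries and a marker for the mean of each group of 3. CD55 is highest in controls at 123 FPKM and C3AR1 lowest in both groups, and the C5AR1 and CFI means change places between control and high cuff pressure.

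Members also differed in how far libraries of the same group lay apart. With high cuff pressure the highest library exceeded the lowest 4.63-fold for CFI, 3.48-fold for SERPING1 and 3.30-fold for CD55, but 1.39-fold for C1S. In controls the widest were C5AR1 (3.34-fold) and C2 (3.14-fold), and the other tested members ranged from 1.43-fold to 1.98-fold. Control replicate 2 was the lowest control for 6 of the 7 tested members.

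The wider complement list held 56 symbols, of which 38 had a row and 25 were tested. Among the 18 tested genes that are not members, 3 rose (CLU, CFP and ITGB2) and 1 fell (COLEC12), which is 16.7% and 5.56% of the 18, against 3.67% higher and 1.62% lower over all tested genes. Their median log2 fold change was 0.63. The groups did not overlap for 27.8% of these 18 in the higher direction and 5.56% in the lower, against 18.6% and 18.7% of all tested genes. The list was chosen with earlier results of these data known, so these shares do not show an enrichment of complement genes. The 7 tested receptors, C5AR1 included, all had positive values, with a median of 1.39, and 1 of the 7 (ITGB2) passed. The 5 tested recognition genes and C1 proteases had a median of -0.80, and none of these 5 passed (edgeR, with 0 of them at an unadjusted p under 0.05 and 0 called by DESeq2). That median is the value of C1QC, which had 29.2 CPM in control replicate 1 and 3.15 and 13.8 CPM in control replicates 2 and 3. C3, the C4 genes, CFB, CFD and CD46 had no row under these symbols and were not analysed here.

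CLU encodes clusterin, a secreted chaperone that keeps terminal complement complexes from membranes. Its levels were 5397, 9432 and 7740 CPM with high cuff pressure and 988, 1297 and 867 CPM in controls, and every treated library was above every control. Clusterin mRNA rose by 2.84 ± 0.39 on the log2 scale (edgeR, adjusted p = 0.017). CFP, properdin, stabilises the convertase of the alternative pathway and is made largely by leukocytes. It had 24.9, 26.4 and 9.55 CPM with high cuff pressure and 4.87, 2.70 and 3.50 CPM in controls, and rose by 2.46 ± 0.46 (edgeR, adjusted p = 0.034).

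ITGB2 is the beta chain shared by complement receptors 3 and 4 on leukocytes. Its levels were 184, 92.5 and 57.0 CPM with high cuff pressure and 23.6, 17.4 and 17.0 CPM in controls, a rise of 2.53 ± 0.43 (edgeR, adjusted p = 0.029). The alpha chain of complement receptor 3, ITGAM, had a log2 fold change of 1.42 ± 0.40 and did not pass (edgeR, adjusted p = 0.074). COLEC12, a scavenger receptor of the collectin family, had 6.11, 7.30 and 6.82 CPM against 21.3, 20.8 and 12.6 CPM in controls, a log2 fold change of -1.43 ± 0.30 (edgeR, adjusted p = 0.043). The calls of CLU, CFP, ITGB2 and COLEC12 were each lost without high cuff pressure replicate 2 or any 1 control library, and that of COLEC12 also without high cuff pressure replicate 3. The adjusted p in these fits ranged from 0.059 to 0.16, with log2 fold changes of 2.65 to 3.02 for CLU, 2.23 to 2.71 for CFP, 2.44 to 2.71 for ITGB2 and -1.64 to -1.30 for COLEC12 (edgeR).

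The C1q chains, which start the classical pathway upstream of C1R and C1S, had negative values that did not pass: C1QA had a log2 fold change of -1.05 ± 0.63 (edgeR, adjusted p = 0.29) and C1QB one of -0.93. Control replicate 1 was the highest library for both, at 18.5 CPM for C1QA and 20.3 CPM for C1QB. Control replicates 2 and 3 had 2.96 and 7.29 CPM for C1QA and 2.70 and 5.76 CPM for C1QB. Treated libraries had 3.18 to 5.62 CPM for C1QA and 3.53 to 7.49 CPM for C1QB. VTN, vitronectin, had 0.91, the terminal component C9 had 0.60, and the membrane regulators SUSD4 and CD59 had 0.65 and -0.36. MASP1, the lectin pathway protease, had 0.22. None of these 5 passed. C5AR2, the other C5a receptor, was named after its values were seen: it was counted 7, 5 and 8 times with high cuff pressure and 6, 4 and 7 times in controls, and was not tested. In the authors' deposited enrichment table, the complement and coagulation cascades had 10 called genes of 51, with C5AR1 among the 7 higher and CFI among the 3 lower, and a q of 0.086.

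**Figure D3:**
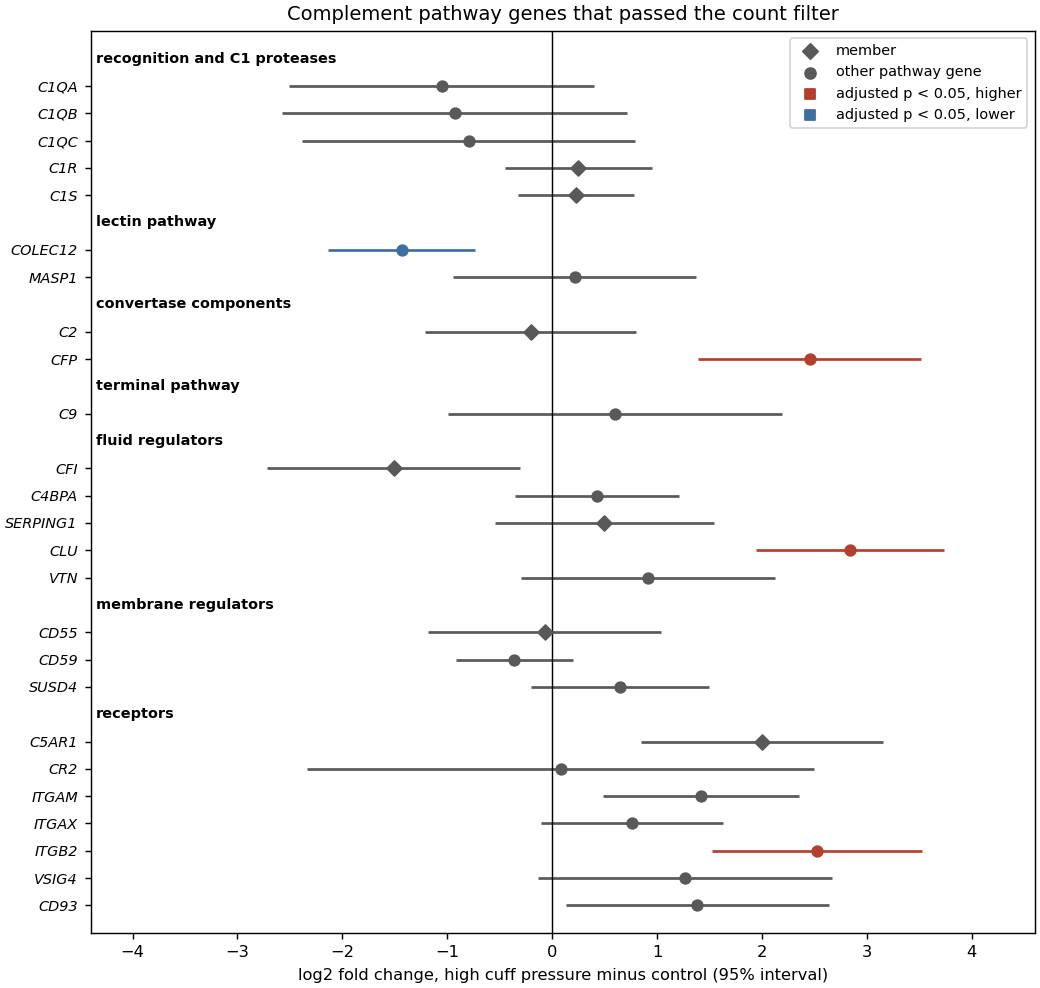
Log2 fold change (high cuff pressure minus control, horizontal axis) with its 95% interval for the 25 tested complement genes, grouped by role. Diamonds are members and circles other genes, and colour marks an adjusted p under 0.05. C5AR1 at 2.00 and CFI at -1.51 are the members farthest from 0, and CLU, CFP, ITGB2 and COLEC12 are coloured.

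Markers of several leukocyte types differed between the groups, in both directions, beside C5AR1. In whole tissue, the number of cells of a type and the RNA per cell cannot be told apart. Of 7 tested neutrophil markers 6 rose, with a median log2 fold change of 6.42 over the 7. The summed level of the 9 markers with a row was 1490 to 6871 CPM with high cuff pressure and 7.21 to 422 CPM in controls. The granule peroxidase marker MPO had 1 count in all libraries together. Of 8 macrophage and monocyte markers 4 rose (CD68, CD14, MARCO and CSF1R), with a median of 1.89 and sums of 198 to 377 CPM against 90.2 to 237 CPM. CD163, MRC1 and MSR1 had positive values that did not pass, and LYZ had -0.35 with overlapping groups. LYZ made up 193 CPM of the sum in high cuff pressure replicate 1 and 183 CPM in control replicate 2, the largest sum of each group. Of 3 tested B and plasma cell markers 2 fell (JCHAIN and MZB1), with a median of -1.62 and sums of 105 to 220 CPM against 474 to 1202 CPM. The 2 tested T cell markers had a median of -0.73, with sums of 4.14 to 5.0 CPM against 5.66 to 8.45 CPM.

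Relative to the mean neutrophil marker, the log2 level of C5AR1 was -3.01 ± 0.71 with high cuff pressure and 0.92 ± 0.42 in controls, a difference of -3.93 (two-sided exact permutation p = 0.10, 0.18 adjusted over 9 ratios). Relative to the mean macrophage marker it was 0.10 ± 0.43 and -0.18 ± 0.74, a difference of 0.28 (exact permutation p = 0.70) that was -0.13 without control replicate 2 and 0.59 without control replicate 1. The difference of C5AR1 was thus smaller than that of the neutrophil markers, and the 2 groups overlapped in its ratio to the macrophage markers. The part of either cell type in the level of C5AR1 was not tested. C3AR1 minus the macrophage markers differed by -1.78 (exact permutation p = 0.20), on counts of 1 to 9.

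The levels of C1R, C1S, SERPING1 and CFI were also set beside fibroblast markers. Of 8 markers 2 fell (LUM and OGN), with a median log2 fold change of -0.80. The markers differed among themselves, from -3.22 for OGN to 0.26 for FBLN1, the only positive one. DCN and MFAP4 also lay wholly lower without passing, and the groups overlapped for COL1A1, COL1A2, PDGFRA and FBLN1. The summed levels were 218, 748 and 1123 CPM in high cuff pressure replicates 1, 2 and 3 and 1094 to 1622 CPM in controls. Relative to the mean fibroblast marker, C1R was higher with high cuff pressure by 1.47, C1S by 1.49 and SERPING1 by 1.63 on the log2 scale. The groups did not overlap for these 3 ratios (two-sided exact permutation p = 0.10 each, 0.18 adjusted over 9 ratios). Without high cuff pressure replicate 1 the differences were 1.13, 1.00 and 1.54. The mean fibroblast marker was itself lower in every treated library (log2 CPM 4.46 to 6.50) than in every control (6.79 to 7.18). For C1R, C1S and SERPING1 alone the groups overlapped. The 3 ratios share the fibroblast mean, so they do not show a difference in these genes.

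CFI minus the fibroblast markers differed by -0.45 (exact permutation p = 0.80), with treated values from -3.59 to 0.63. The difference was -1.56 without high cuff pressure replicate 1 and 0.55 without replicate 3, so its direction rests on single libraries. The 7 epithelial markers had a median log2 fold change of 0.03, and their sums were 2528 to 4266 CPM against 1838 to 1885 CPM. KRT5 (2.38) and KRT8 (0.88) lay wholly higher without passing, and the groups overlapped for EPCAM, CDH1, TP63, FOXJ1 and ELF3. KRT5 alone had 387 to 2374 CPM with high cuff pressure and 124 to 327 CPM in controls. The liver markers ALB, APOA1, TTR and FGB summed to at most 0.353 CPM in any library. The part of fibroblasts in the members' levels was not tested.

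**Figure D4:**
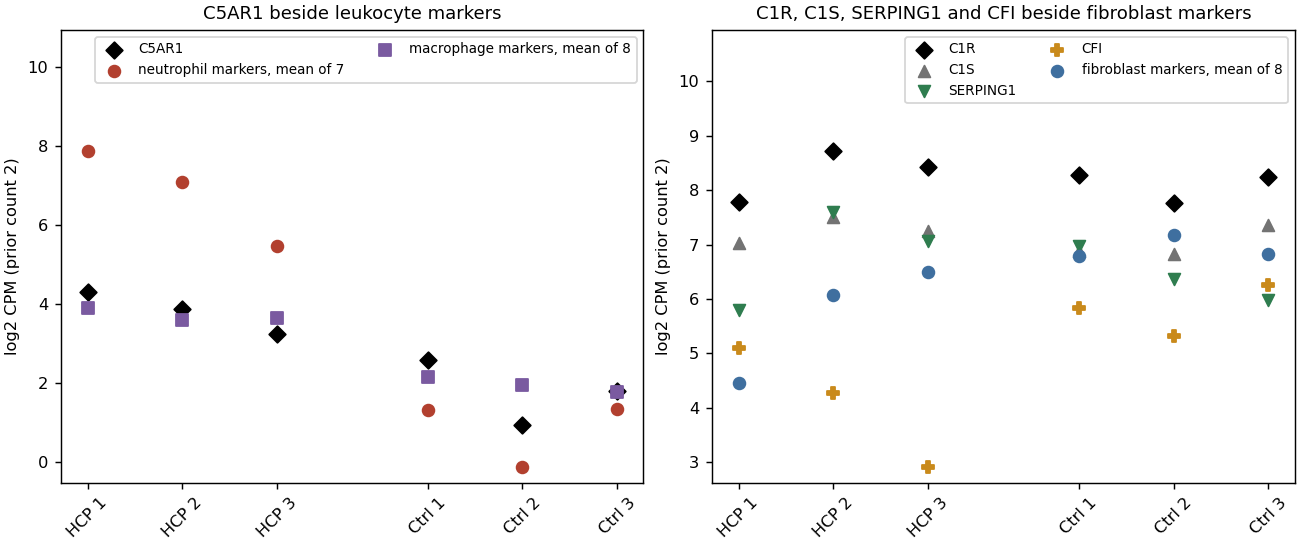
Log2 CPM (prior count 2, vertical axes) per library of C5AR1 beside the mean of 7 neutrophil and 8 macrophage markers, and of C1R, C1S, SERPING1 and CFI beside the mean of 8 fibroblast markers. HCP is high cuff pressure and Ctrl control. C5AR1 lies close to the macrophage mean in most libraries and below the neutrophil mean in the treated ones, and the fibroblast mean is lowest in high cuff pressure replicate 1.

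Profiles most like each member's were found by the root mean square difference of centred log2 CPM over the 6 libraries, as a description. For C5AR1 the closest of 11138 genes were CASQ1 (0.120), CD300LF (0.204) and CD37 (0.209), and 74 genes lay within 0.5. For CFI they were KCTD8 (0.201), LRRC6 (0.205) and MLF1 (0.214), with 223 genes within 0.5. C2 was closest to RTP4 (0.166), ADI1 (0.223) and GBP1 (0.231), with 825 genes within 0.5.

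Each of the remaining tested members had more genes within 0.5 than C5AR1, CFI or C2. C1R was closest to MRPL45 (0.0612), MRPL39 and POLR2J, with 4292 genes within 0.5, and C1S to TTC1 (0.0829), TARS2 and FAM3A, with 5047. SERPING1 was closest to PACSIN3 (0.0814), GATSL3 and FMNL3, with 1431 genes within 0.5, and CD55 to L3MBTL3 (0.0931), with DNER also among the nearest and 1223 genes within 0.5. C3AR1, from 1 to 9 counts per library, was closest to LCP1 (0.196), GZMH and RND1.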

How the data were processed

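Tracheal mucosa RNA of 6 libraries, 3 per group, was read as poly(A) libraries with the DNBSEQ-T7 sequencer, per the protocols in the labels. Groups and replicate numbers follow the library names in the labels; control replicate 3 has the title S4, and no sample has the title S3. Tools listed in the submitters' processing notes are edgeR, StringTie 1.3.3b and HISAT2 2.0.4, and the sources used here give no genome build, annotation or strand setting. The deposited table holds raw read counts per gene and, per the file headers, FPKM computed by the authors. Another deposited table gives the authors' p-values and q-values, and the deposited enrichment table gives their rich factor, a ratio of shares, with numbers of genes.

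Counts were tested with edgeR 4.0.16 in R 4.3.3 (filterByExpr with a minimum count of 10, TMM, robust glmQLFit, glmQLFTest, Benjamini-Hochberg over 13724 genes, threshold 0.05). Standard errors are the log2 fold change over the square root of F, and log2 CPM use a prior count of 2. Single ratios were compared by a two-sided exact permutation test over libraries. The fit was tested on simulated data. No libraries were repeats of each other (chi-square per degree of freedom 60.0 to 146 within groups).

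The 8 members and the lists of pathway genes and markers were chosen with earlier results of these data known. Named genes are all members, the pathway genes past the threshold, the 2 with the smallest p in each role group, and the 3 profiles most like each member's. Not every gene that this rule gives is reported here. The alternatives were DESeq2 1.42.0, limma 3.58.1 (voom, and trend on log2 FPKM with pseudocounts of 1 and 0.1, with a minimum of 1 FPKM in 3 libraries or unfiltered), edgeR with RLE factors or library totals alone, unfiltered or with a minimum of 1 CPM in 3 libraries, non-robust, with a replicate block, or without mitochondrial genes, and fits leaving out each library. Promoters were not analysed here.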

Additional observations from a re-analysis of the deposited data

How the results depend on the processing

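In the edgeR quasi-likelihood test 0 of 7 members were called in either direction. DESeq2, edgeR's exact test (chosen after seeing the data) and limma-trend with pseudocounts of 1 and 0.1 each called 1 member higher (C5AR1) and 1 lower (CFI), and limma-voom called 1 higher. With 1 library left out, members called lower ranged from 0 to 1. C5AR1 was positive (1.45 to 2.53) and CFI negative (-2.12 to -1.11) under all 19 alternatives, and each passed in 5. Of all tested genes 725 were called, against 2590 with DESeq2, 1630 with total counts only, 1968 with the exact test, 2182, 1851 and 341 with limma-trend (pseudocounts 1 and 0.1, and no filter), 244 with the replicate block, and 0 to 2623 with 1 library left out. With total counts only, 389 genes were higher and 1241 lower, against 503 and 222, and the median of all genes was -0.40; with limma-trend it was -0.35, -0.41 and -0.14. Beside those shifts, none past the threshold, C1R was -0.15 with total counts only and -0.17, -0.18 and -0.17 with limma-trend, C1S was -0.18 and then -0.16 in each limma-trend fit, and SERPING1 was -0.011, -0.014 and -0.011. With 1 library left out, C2 ranged from -0.56 to 0.11 (without control replicate 3) and CD55 from -0.83 to 0.22, above 0 without high cuff pressure replicate 2 (0.18) or 3 (0.22) or control replicate 3 (0.16). Complement list genes called higher numbered 3, against 5 with DESeq2 and the exact test, 1 with unfiltered limma-trend, 2 with the replicate block (CFP lost), and 0 to 4 with 1 library left out. Those called lower numbered 1, against 2 with DESeq2, the exact test and both filtered limma-trend fits, 0 with unfiltered limma-trend and with the replicate block, and 0 to 2 with 1 library left out. Pairing by replicate number was not seen (correlation of same-numbered deviations -0.28 to -0.20, with no library closest to its own number). Deviations from the mean of so few libraries cannot exclude it. The replicate block left no member past the threshold.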
